A study of Mus musculus with 4 samples.

Results

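The classic cadherins and the non-clustered protocadherins form the subject of these measurements, together with the large Fat and Dachsous cadherins. Members were all gene symbols of the deposited spatial count table that read Cdh followed by a number, Pcdh followed by a number with or without an x, or Fat1 to Fat4, Dchs1 and Dchs2. In all, 40 of 19465 symbols matched, and the rule reads symbols and not values. They comprise 4 type I cadherins (Cdh1, Cdh2, Cdh3, Cdh4), 13 type II cadherins (Cdh5 to Cdh12, Cdh18, Cdh19, Cdh20, Cdh22 and Cdh24) and 5 other cadherins (Cdh13, Cdh16, Cdh17, Cdh23 and Cdh26). The protocadherins comprise 4 of the delta-1 group (Pcdh1, Pcdh7, Pcdh9 and Pcdh11x), 6 of the delta-2 group (Pcdh8, Pcdh10, Pcdh17, Pcdh18, Pcdh19 and Pcdh20) and 2 others (Pcdh12 and Pcdh15), and the Fat and Dachsous group holds 6 genes.

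The study placed coronal mouse brain sections, cut from formalin-fixed, paraffin-embedded tissue at the level of the striatum, on a spatial transcriptomics assay that reads gene-specific probe pairs captured at barcoded spots. Sections came from 4 untreated mice, 2 of them wild type and 2 Celsr3 heterozygous; Celsr3 is an atypical cadherin with its own planar polarity and axon guidance functions. Age, sex, strain and the kind of Celsr3 allele are not given in the sources used here. The table names each spot by a barcode and an ending from 1 to 4, here called barcode sets 1 to 4, and no label ties an ending to a mouse or genotype, so no comparison of genotypes was made.

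Cadherins are calcium-dependent adhesion molecules in the plasma membrane. Classic cadherins bind cadherins on the neighbouring cell and hold catenins on the inside, which link them to actin. Type I members bind mostly their own kind, whereas type II members bind one another in groups of several genes. Non-clustered delta protocadherins lack the catenin link, bind weakly on their own, and take part in axon sorting, dendrite growth and synapse formation. Fat and Dachsous proteins bind each other as a receptor and ligand pair in planar polarity. In the brain, neighbouring nuclei and cortical layers are known to carry different combinations of these genes.

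Sets 1 to 4 held 3055, 2808, 3445 and 3294 spots and between 90752475 and 174761560 counts each, with sets 1 and 3 the deepest. A total of 12601 spots with at least 500 counts were clustered on genes that excluded all members, their adhesion partners, sex-linked genes and Celsr1 to Celsr3, and 21 clusters were used as areas. A spot can hold several cells, so an area is a tissue region and not a cell type, and fewer cells of a type cannot be told apart from less RNA per cell. Areas took a region's name only where at least 3 of its listed markers stood among the 30 leading genes: striatal (Adora2a), cortical layer 2/3 (Cux2, Lamp5), layer 4 (Rorb, Kcnh5), layer 6 (Rprm, Garnl3), claustral (Nr4a2, Ntng2), basal forebrain cholinergic, hypothalamic, septal, thalamic, meningeal, ependymal, choroid plexus and white matter. Others carry a leading gene, such as the Fezf2-led cortical area, the Ccn2-led area (Ccn2 and Cplx3, listed for the deepest cortical layer), the Pdyn-led area (Pdyn, Wfs1, with striatal markers), the Lmo3-led area and the Six3-led area. A separate Klk6-led white matter area also had all 10 listed white matter markers, and white matter alone refers to the other area. Spot positions were not used, so areas called adjoining, and the order of cortical areas from surface to depth, are assumed from marker genes. Sections did not hold the same areas: 16 areas had at least 30 spots in all 4 sets, while the thalamic and Six3-led areas had them in sets 1 and 4 alone, and the septal area in sets 1, 2 and 3. Celsr3 itself stood at 31.7, 46.8, 26.01 and 47.2 counts per 1000000 counts (CPM) in sets 1 to 4, and these values were not used to assign a set to a genotype.

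Levels are CPM of counts summed over all spots of an area in a set, and values for sets are given in the order 1 to 4 throughout. Unless stated otherwise, a highest or lowest area is that among the 16 areas with at least 30 spots in all 4 sets. A gene was called higher or lower in an area when its CPM there, with 10 CPM added on both sides, was at least 2-fold away from that of all other spots of the same set, in the same direction, in every set with at least 30 spots of the area. These calls describe 4 sections and are not statistical tests. Alternatives included coarser and finer clustering (resolution 0.4 and 1.2 in place of 0.8), clustering with no centring of genes within sets or without 1 set, a minimum of 2000 counts per spot, and TMM and RLE scaling, which use the bulk of genes in place of the total. Counts of alternatives also take in a fold of 1.5, 1 CPM added in place of 10, and no minimum CPM. None of these last settings can lose a call, so a call kept under them is no sign of stability. Intervals given beside ratios are exact 95% intervals for counting error only. Probe counts are not per length, so a level is compared only with levels of the same gene.

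Of the 40 members, 30 reached a mean of 10 CPM over whole sections, and calls were made over these and the other genes that did, 10144 in all. In at least 1 area 12 of the 30 members were called higher, beside 15.2% of all tested genes, and 12 were called lower, beside 15.3%. Together 19 of the 30 were called in 1 direction or the other, beside 23.2% of tested genes. The median log2 range over areas was 2.10, 2.01, 1.92 and 2.04 for members in the 4 sets, against 1.06, 1.02, 0.97 and 1.06 for all tested genes. The members called in each area are marked with dots in the heat map of members by area. In 7 areas (claustral, Lmo3-led, Ccn3-led, basal forebrain cholinergic, Spp1-led, ependymal and Klk6-led white matter) no member was called, while between 0.0493% and 2.92% of tested genes were called in 1 direction there.

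**Figure D1:**
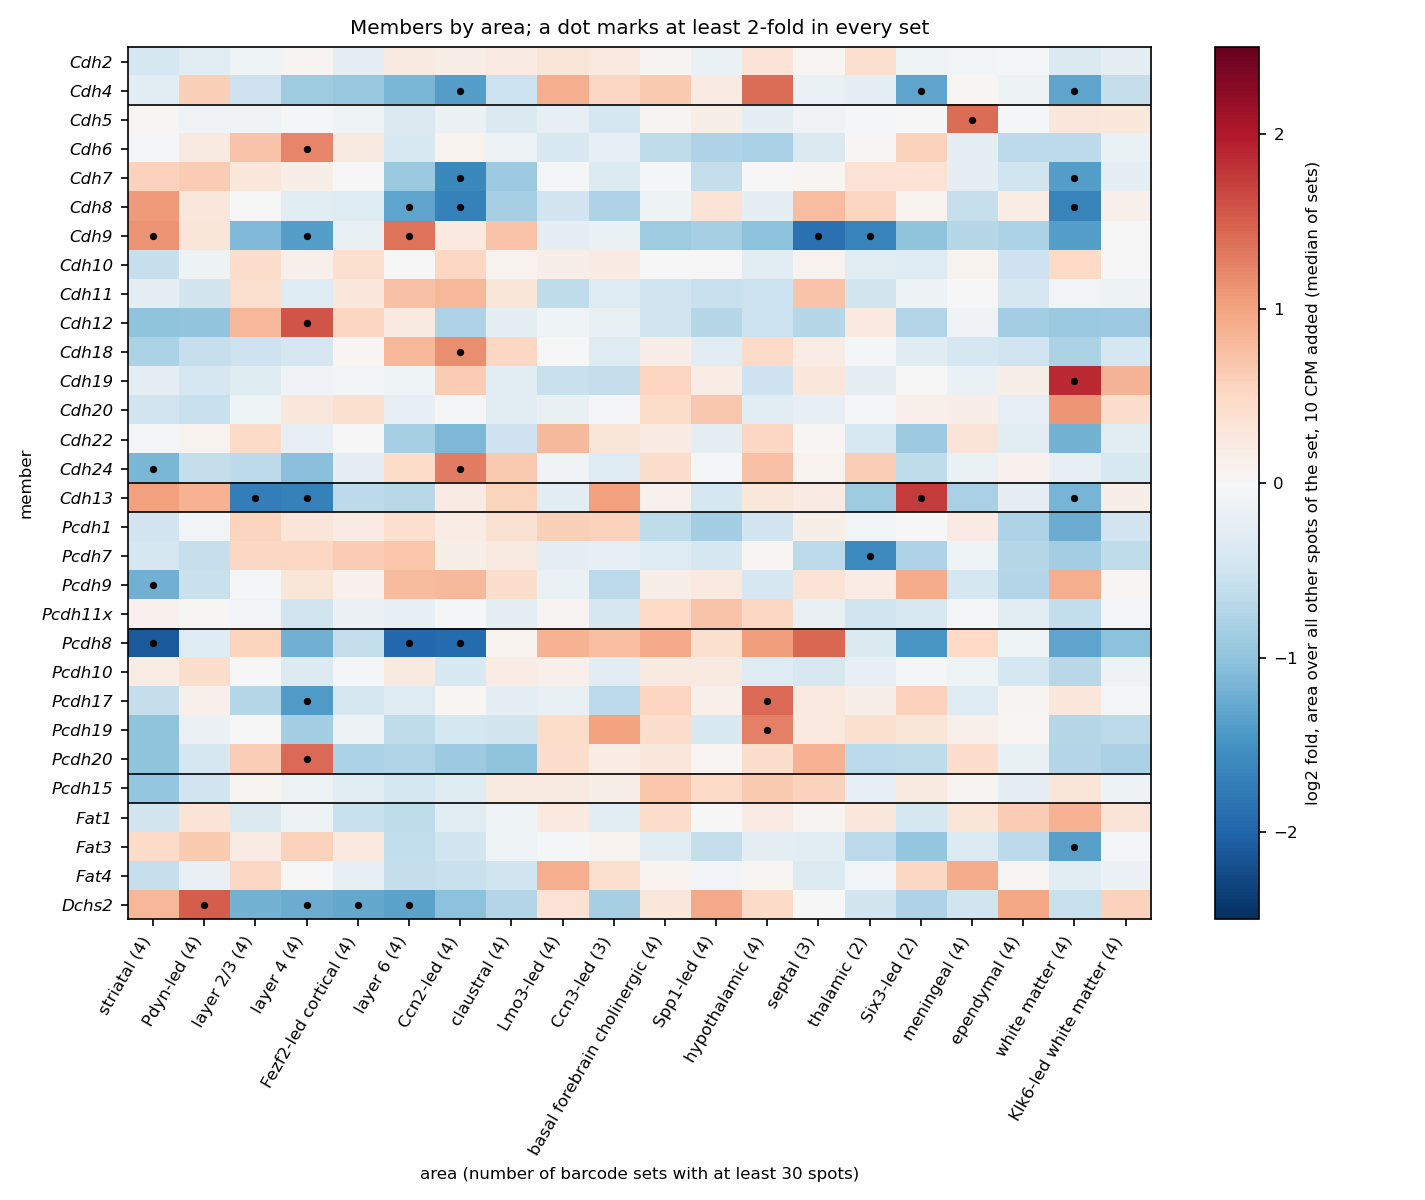
Log2 fold of each tested member (rows, in family order) in each area (columns, with the number of barcode sets that hold it) over all other spots of the same set, as the median of the sets, with 10 CPM added; dots mark members past 2-fold in every set. Red is higher and blue is lower, and 19 of the 30 members carry at least 1 dot.

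A set of 5 type II genes lies in a row on chromosome 15, and the RefSeq order places no other protein-coding gene between Cdh6 and Cdh9, Cdh9 and Cdh10, or Cdh10 and Cdh12, and 1 between Cdh12 and Cdh18. Of these genes Cdh10 was called in no area, and the other 4 peaked in cortical areas described below. The starts of Cdh9 (highest in layer 6), Cdh12 (layer 4) and Cdh18 (the Ccn2-led area) are shown with that of Pcdh20, a delta-2 protocadherin on chromosome 14 that also peaked in layer 4. Each sequence is the 250 bases before the RefSeq start on GRCm38.p6, on the gene's strand: Cdh9 at chr15:16728665-16728914 (plus strand), Cdh12 at chr15:21111202-21111451 (plus strand), Cdh18 at chr15:23036213-23036462 (plus strand) and Pcdh20 at chr14:88471397-88471646 (minus strand). The build of the count table is not given in the sources used here. Capitals mark every match, on either strand, to the E-box CANNTG, the nuclear receptor half-site AGGTCA or the TATA box TATAAA.
Cdh9: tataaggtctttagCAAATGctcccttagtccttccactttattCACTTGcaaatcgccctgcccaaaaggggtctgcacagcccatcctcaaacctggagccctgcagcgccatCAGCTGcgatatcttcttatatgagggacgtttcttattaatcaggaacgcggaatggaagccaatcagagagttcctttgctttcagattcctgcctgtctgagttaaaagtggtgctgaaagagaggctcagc
Cdh12: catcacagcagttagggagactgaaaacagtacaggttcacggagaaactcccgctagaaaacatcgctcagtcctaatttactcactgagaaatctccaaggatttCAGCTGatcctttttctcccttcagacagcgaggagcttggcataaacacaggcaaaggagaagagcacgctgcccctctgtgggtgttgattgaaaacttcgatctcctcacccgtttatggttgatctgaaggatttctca
Cdh18: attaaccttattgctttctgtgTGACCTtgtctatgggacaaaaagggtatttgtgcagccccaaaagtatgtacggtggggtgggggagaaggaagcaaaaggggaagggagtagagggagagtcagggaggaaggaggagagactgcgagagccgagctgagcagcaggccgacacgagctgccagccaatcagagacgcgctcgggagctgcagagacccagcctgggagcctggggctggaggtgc
Pcdh20: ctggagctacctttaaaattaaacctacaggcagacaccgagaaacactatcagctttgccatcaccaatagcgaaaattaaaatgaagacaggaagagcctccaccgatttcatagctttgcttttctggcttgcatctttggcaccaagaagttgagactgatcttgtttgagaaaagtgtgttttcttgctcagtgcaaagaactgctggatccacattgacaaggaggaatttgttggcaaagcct
The Cdh9 window holds 3 E-boxes, the Cdh12 window 1 E-box and the Cdh18 window 1 half-site (read as TGACCT on the strand shown), while the Pcdh20 window holds none of the 3 motifs. Among 32851 windows of the same length, 66.2% hold CANNTG, 14.0% AGGTCA and 12.4% TATAAA. A match of letters is a description and not a binding site.

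Type I cadherins were followed through Cdh2 and Cdh4, since Cdh1 and Cdh3 stayed under the minimum. Cdh4, R-cadherin, named after the retina, was called lower in the Ccn2-led area, in white matter and in the Six3-led area, where 1.54%, 7.63% and 4.44% of tested genes were called lower. Its level was 6.19, 10.3, 8.56 and 12.3 CPM in the Ccn2-led area against 31.9, 44.9, 33.6 and 48.7 in the other spots. In white matter it was 6.77, 13.7, 6.45 and 13.9 CPM, a call lost with no centring at a highest fold of 0.519. The hypothalamic area had the highest Cdh4 among areas held by all sets in 3 of 4 sets, at 91.1, 73.8, 106 and 114 CPM, without a call because set 2 stood under 2-fold. In the Six3-led area, held by sets 1 and 4, Cdh4 was 10.1 and 9.88 CPM, and that call was lost under 4 of the 11 alternative settings that could be run.

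Cdh6 and Cdh12, both type II cadherins, were called higher in layer 4, as was Pcdh20 of the delta-2 protocadherins, beside 1.04% of tested genes; layer 4 is the cortical layer that receives thalamic input. Cdh6 was 89.2, 56.2, 74.4 and 57.5 CPM in layer 4 against 29.5, 20.7, 22.9 and 21.2 elsewhere, 2.72 to 3.24 times as much. Cdh12 was 77.99, 58.6, 59.5 and 45.7 CPM there against 15.9, 12.01, 14.4 and 13.4, with a ratio of 3.41 to 4.92 and every interval above 2.92. In each set the layer 4 value of both genes lay above that of every other cortical layer area. When the spots were clustered again without set 1, the calls of Cdh6 and Pcdh20 were lost, with lowest folds of 1.62 and 1.75, while that of Cdh12 was kept. Set against layer 2/3 alone, the 3 genes were higher in layer 4 in every set, but by a lowest log2 fold of 0.24 for Cdh6, 0.40 for Cdh12 and 0.58 for Pcdh20, short of 2-fold.

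Cdh9, a type II cadherin known for its part in hippocampal synapse formation, was called higher in both layer 6 and the striatal area. In layer 6 it was 98.7, 71.8, 84.03 and 61.3 CPM against 29.6, 30.5, 29.7 and 15.4 in other spots, and in the striatal area 73.1, 69.1, 75.7 and 41.3 CPM. Of all tested genes 0.641% were called higher in layer 6 and 2.14% in the striatal area. The layer 6 call sat close to the limit: it was lost under 6 of 13 alternatives, where the lowest fold lay between 1.95 and 1.99. The striatal call was lost at resolution 0.4, with a lowest fold of 1.96. Cdh9 was called lower in layer 4, the septal area and the thalamic area, with 2.17%, 2.21% and 3.11% of tested genes. It was 8.41, 6.98, 7.39 and 4.09 CPM in layer 4, 0.736, 7.87 and 2.796 in the septal area (sets 1 to 3) and 1.89 and 2.12 in the thalamic area (sets 1 and 4), so its layer 6 level was several times that of layer 4 in every set. The 32 septal spots of set 1 held 86607 CPM of summed white matter markers, against 4906 and 12952 in the septal spots of sets 2 and 3. The part of white matter in the septal Cdh9 values was not tested. The layer 4 call was lost without set 1 and under TMM and RLE scaling, with highest folds of 0.519, 0.51 and 0.512. Between the adjoining Fezf2-led and layer 6 areas Cdh9 was also called, at 0.274 to 0.367 times the layer 6 level in the Fezf2-led area, where 0.256% of tested genes were lower.

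Cdh18 and Cdh24, both type II, were called higher in the Ccn2-led area, where 0.601% of tested genes were. Cdh18 was 39.5, 85.2, 51.8 and 82.5 CPM against 12.7, 30.2, 18.8 and 30.5, and Cdh24 was 65.7, 71.6, 63.6 and 79.6 CPM against 25.3, 21.9, 21.5 and 25. Ratios were 2.703 to 3.12 and 2.603 to 3.27, and across the cortical areas of each set both genes were highest in this one. Across 16 areas their profiles had the highest median correlation of the 435 pairs of tested members, with r of 0.84, 0.72, 0.80 and 0.89 in the 4 sets; areas of a set share a library and its depth, so r is a description. Clustering without set 3 left Cdh18 at 1.75 and Cdh24 at 1.73 as lowest folds, clustering without set 2 left Cdh24 at 1.90, and clustering with no centring left them at 1.95 and 1.82, so that these calls were lost there. In the striatal area Cdh24 was called lower, with 3.99% of tested genes, at 7.902, 7.89, 5.93 and 7.25 CPM, a call lost under TMM and RLE scaling, at resolution 1.2 and at a minimum of 2000 counts per spot, 4 of 13 alternatives, with highest folds of 0.505 to 0.517.

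Cdh7 and Cdh8, a further pair of type II genes, ran the other way in deep cortex. Both were called lower in the Ccn2-led area and in white matter, and Cdh8 in layer 6, where 1.45% of tested genes were. Cdh8 was 34.6, 14.9, 29.1 and 16.6 CPM in layer 6 and 25.01, 8.27, 18.04 and 12.3 in the Ccn2-led area, against 98.2, 60.7, 91.3 and 49.96 outside layer 6. It was highest in the striatal area in all 4 sets, at 173, 118, 161 and 72.6 CPM, which passed 2-fold in sets 1, 2 and 3 but not in set 4. Cdh7 was 3.096, 2.48, 3.47 and 2.17 CPM in the Ccn2-led area and 2.43, 5.203, 6.02 and 8.54 in white matter, against 28.1, 27.2, 34.02 and 27.6 outside it. The white matter call of Cdh7 was lost under 3 of 10 alternatives, with highest folds of 0.543 at resolution 1.2, 0.502 with no centring and 0.52 without set 2. The pair shared r of 0.74 to 0.85 over areas.

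**Figure D2:**
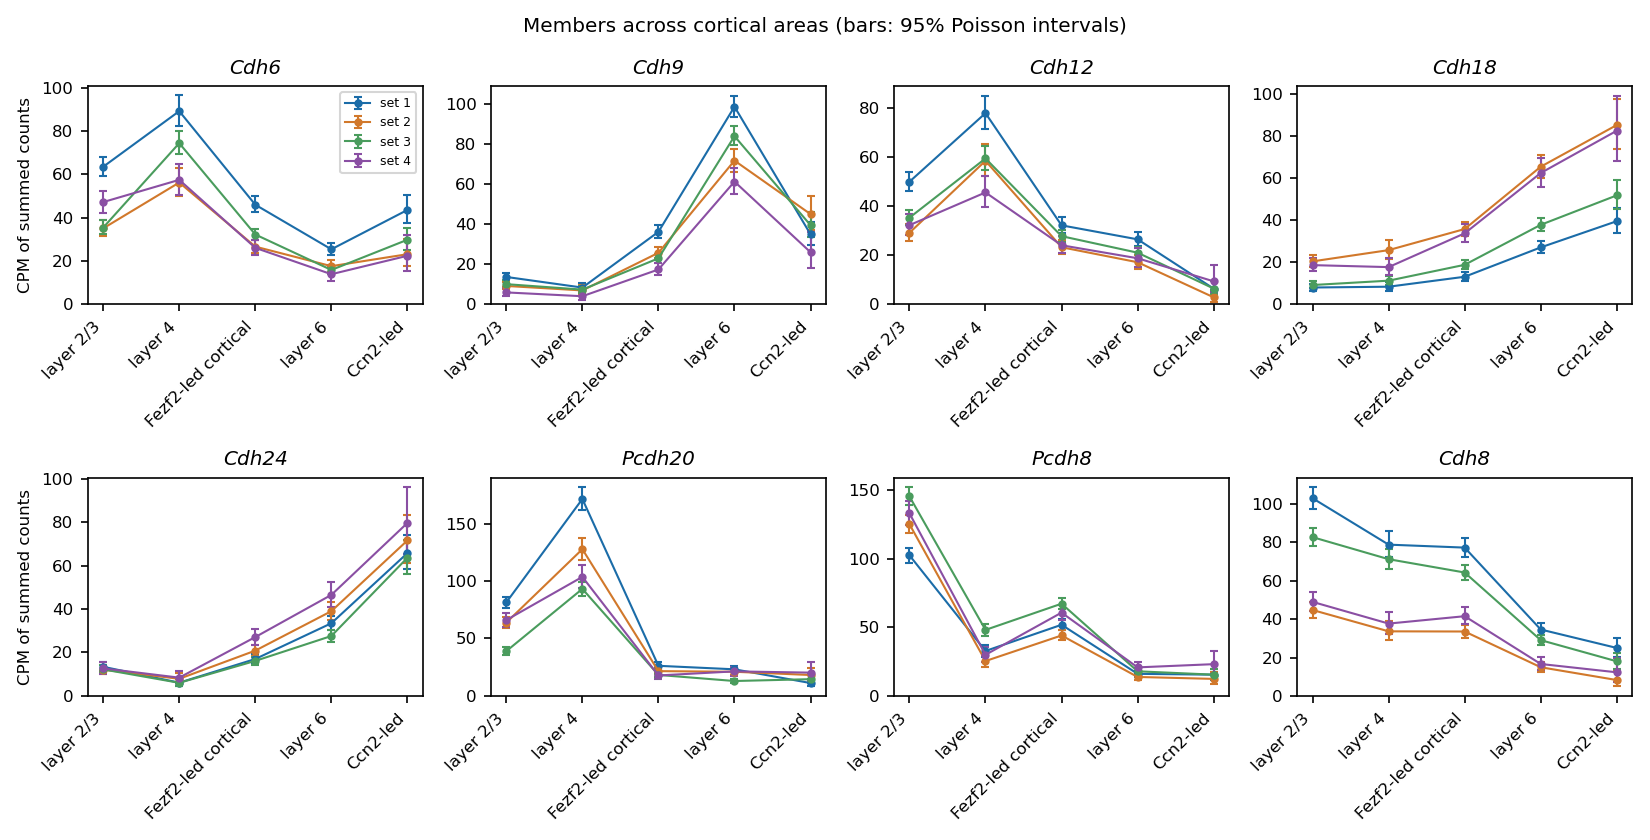
CPM of 8 members (vertical axes, 1 scale per gene) in 5 cortical areas, in an order from surface to depth assumed from marker genes. Each barcode set has 1 line, and bars give exact 95% Poisson intervals. Cdh6, Cdh12 and Pcdh20 peak in layer 4, Cdh9 in layer 6 and Cdh18 and Cdh24 in the Ccn2-led area in all 4 sets, while Pcdh8 is highest in layer 2/3.

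Cdh5, VE-cadherin of endothelial junctions, was called higher in the meningeal area, as were 0.641% of tested genes. It was 40.4, 60.1, 32.3 and 51.98 CPM there against 11.1, 13.99, 6.78 and 12.5 elsewhere, 3.65 to 4.77 times as much. The summed level of 6 endothelial markers was 443, 535, 354 and 663 CPM in the meningeal area against 179, 204, 144 and 221 over whole sections, with all 6 detected; the part of endothelial content in the Cdh5 values was not tested. Cdh19, a type II cadherin known from Schwann cell precursors, was called higher in white matter, as were 4.29% of tested genes. It was 98.1, 40.97, 71.4 and 30.9 CPM there against 14.7, 4.45, 11.7 and 5.37, 5.77 to 9.21 times as much, with every interval above 3.82. The 10 white matter markers summed to between 82717 and 123340 CPM in that area and to between 9491 and 18442 over whole sections. For 4 oligodendrocyte precursor markers the sums were between 359 and 529.8 and between 106 and 142. The part of both lists in the Cdh19 values was not tested. In the Klk6-led white matter, where the 10 white matter markers summed to between 29907 and 56412 CPM, neither Cdh19 nor any other member was called. Cdh20 was highest in white matter in all 4 sets too, at 78.5, 40.97, 58.1 and 37.4 CPM, passing 2-fold in sets 1 to 3, and its profile went with that of Cdh19 at r of 0.73 to 0.82. The adjacent genes Cdh7 and Cdh19, with no protein-coding gene between them, had r between -0.67 and -0.50 over areas.

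Cdh10, Cdh11 and Cdh22, the remaining type II genes, were called in no area. Cdh11, a cadherin also of bone cells, ranged from 31.5 to 162 CPM over all areas and sets. Among the 16 areas held by all sets it was highest in the Ccn2-led area in 3 of 4 sets, at up to 155 CPM. Cdh22 was highest in the Lmo3-led area in all 4, at 39.3, 59.3, 38.8 and 74.8 CPM. The highest area of Cdh10 differed among sets: the Ccn2-led area in sets 1 and 3, white matter in set 2 and layer 2/3 in set 4.

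Cdh13 is T-cadherin, a truncated member held by a lipid anchor and without catenin binding, known also as an adiponectin receptor. It was called lower in layer 2/3, layer 4 and white matter, and 1.92% of tested genes were lower in layer 2/3. Its levels were 33.8, 37.4, 39.2 and 34.1 CPM in layer 2/3, 50.01, 35.8, 35.8 and 37.3 in layer 4 and 40.6, 55.3, 59.4 and 56.6 in white matter, against 140.0, 137, 149 and 152 outside layer 2/3. The calls in both upper layers were kept under every alternative run, while that in white matter was lost under 3 of 10. Cdh13 was called higher in the Six3-led area of sets 1 and 4, at 398 and 528 CPM, where 1.1% of tested genes were; this area is led by Pvalb and Six3. Against the thalamic area of the same sets, at 72.7 and 74.3 CPM, the ratio was 5.47 to 7.11, with 2.12% of tested genes higher. Cdh4 and Cdh24 were lower in the Six3-led than in the thalamic area, as were 3.14% of tested genes. Cdh24 was 19.4 and 8.59 CPM in the Six3-led and 59.1 and 30.2 CPM in the thalamic area, and Cdh4 was 30.2 and 33.6 CPM in the latter.

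Delta-1 protocadherins showed broad levels with few calls. Pcdh9 was called lower in the striatal area, at 54.9, 58.4, 57.7 and 68.2 CPM against 139.6, 146, 147 and 148. By its median over sets Pcdh9 was highest in white matter, which led in sets 1 and 3, while the Ccn2-led area led in sets 2 and 4. With TMM and RLE scaling its highest striatal fold was 0.539 and 0.544 and the call was lost, as it was at resolution 0.4 with 0.516. Pcdh7, also named NF-protocadherin, was called lower in the thalamic area of sets 1 and 4, at 59.8 and 34.5 CPM against 193 and 128. It was highest in layer 6 in all 4 sets and followed Cdh12 over areas at r of 0.76 to 0.83. Pcdh1 and Pcdh11x were called in no area and were lowest in white matter, in 3 of 4 sets each. Pcdh11x stood at 7.76 and 5.73 CPM over whole sections in sets 2 and 4, so with 10 CPM added it could not be called lower.

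Among delta-2 protocadherins Pcdh8, an activity-regulated protein also called arcadlin, was called lower in the striatal area, layer 6 and the Ccn2-led area, and all 3 calls were kept under every alternative run. The layer 6 log2 fold of the set nearest to 0 moved from -1.67 to -1.02 when set 3 was left out of the clustering, to -1.03 with no centring and to -1.06 at resolution 0.4. Striatal levels were 13.5, 14.7, 13.2 and 20.2 CPM against 77.7, 103, 114 and 109 elsewhere, 0.116 to 0.185 times as much, with every interval under 0.213. In layer 6 it was 16.1, 13.8, 17.95 and 20.8 CPM and in the Ccn2-led area 15.5, 12.4, 15.5 and 23.2. Adjoining areas differed too. In the Pdyn-led area, which shares striatal markers with the striatal area, Pcdh8 was 49.8, 72.96, 59.01 and 129 CPM, 3.69 to 6.402 times the striatal level, with 0.315% of tested genes called higher between the 2. It was 103, 125, 145 and 133 CPM in layer 2/3 and 32.8, 25.4, 48.1 and 29.98 in layer 4, a ratio of 3.02 to 4.92, with 0.325% of tested genes higher. The Fezf2-led area, at 51.9, 44.1, 67.2 and 60.7 CPM, was above layer 6, as were 0.355% of tested genes. The claustral area was above layer 6 as well, for Pcdh8 at 82.9, 80.8, 84.9 and 127 CPM and for Cdh13 at 195, 195, 207 and 188 CPM, with 0.384% of tested genes higher.

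Pcdh20 completed the layer 4 group at 171, 128, 93.2 and 104 CPM against 30.2, 39.5, 30.8 and 35.5 elsewhere, 2.92 to 5.68 times as much. Set 1 stood above the other sets in that ratio. Against the Fezf2-led area, at 26.2, 21.6, 18.3 and 17.8 CPM, layer 4 held 5.103 to 6.54 times as much, and 0.414% of tested genes were higher in that pair. Pcdh20 lies next to Pcdh9 with no protein-coding gene between, and their profiles had r between -0.27 and -0.09.

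Pcdh17 and Pcdh19 were called higher in the hypothalamic area, as were 1.31% of tested genes; Pcdh19 is the X-linked gene of a human epilepsy that affects females. Pcdh17 was 188, 257, 204 and 206 CPM there against 75.6, 74.1, 62.4 and 79.9, and Pcdh19 was 79.1, 110.0, 92.4 and 151 CPM against 30.5, 45.4, 29.2 and 52.5. Ratios of the area over other spots were 2.49 to 3.47 for Pcdh17 and 2.42 to 3.17 for Pcdh19. Clustering without set 4 left Pcdh19 at 1.99 as its lowest fold. Pcdh17 was called lower in layer 4, at 31.9, 27.6, 22.3 and 28.2 CPM, a call lost when set 1 was left out of the clustering, with a highest fold of 0.572. Pcdh18, with a mean of 8.41 CPM and so untested, was also highest in the hypothalamic area in all 4 sets, at 30.4, 14.5, 35.6 and 22.5 CPM. Pcdh19 and Pcdh8 had r of 0.75 to 0.85 over areas, and both were lowest in the striatal area in 3 of 4 sets. Pcdh10 was called in no area, and was lowest in white matter in all 4 sets.

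Of the Fat and Dachsous group, Dchs2 and Fat3 were called. Dchs2 encodes a Dachsous ligand of Fat cadherins. It was called higher in the Pdyn-led area, with 0.7% of tested genes, at 69.3, 51.4, 72.7 and 45.99 CPM against 18.01, 10.5, 18.98 and 12.8 elsewhere, 3.6 to 4.91 times as much. The large striatal area held 41.6, 17.2, 33.7 and 35.7 CPM, and against it alone the Pdyn-led area was higher by a lowest log2 fold of 0.29, with no call. The Pdyn-led area was found again in 3 of the 8 other clusterings, and the call was kept in all 8 alternatives that could be run on it. Among these, a fold of 1.5, 1 CPM added and no minimum CPM could not have lost it. Dchs2 was called lower in layer 4, the Fezf2-led area (1.33% of tested genes) and layer 6. It was 1.74, 1.25, 0.972 and 1.36 CPM in layer 4, 1.36, 1.43, 1.96 and 1.61 in the Fezf2-led area and 1.24, 0.337, 1.297 and 1.45 in layer 6. In layer 2/3 it was 2.198, 1.81, 2.25 and 2.51 CPM, with no call. The calls in layer 4 and the Fezf2-led area were lost under TMM and RLE scaling, with a highest fold of 0.502 under RLE. Fat3, a receptor that shapes dendrites of retinal neurons, was called lower in white matter at 10.1, 10.4, 9.04 and 8.54 CPM against 45.7, 42.2, 38.6 and 36.95, a call lost at a minimum of 2000 counts per spot with a highest fold of 0.571.

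Fat1 and Fat4 were called in no area. Fat1 was highest in white matter in 3 of 4 sets among areas held by all sets, and in the 20, 19 and 9 choroid plexus spots of sets 1, 3 and 4 it was 158, 139 and 192 CPM. Fat4 was highest in the meningeal area by its median, at 30.3, 33.7, 34.4 and 30.4 CPM, against 12.8, 11.6, 11.8 and 12.8 elsewhere. The Lmo3-led area was above the meningeal area for Fat4 in sets 2 and 3, at 40.1 and 35.4 CPM. Dchs1, whose mean of 9.60 CPM left it just under the minimum, was highest in the ependymal area in all 4 sets, at 40.4, 33.7, 34.1 and 45.3 CPM against 9.31, 9.004, 7.96 and 8.03. The last protocadherin, Pcdh15, which links hair cell stereocilia in the inner ear, was called nowhere and was lowest in the striatal area in all 4 sets, at 16.99, 11.5, 17.2 and 12.5 CPM.

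The members under the minimum were read as counts. Cdh1, E-cadherin of epithelia, had 37, 69, 51 and 33 counts in whole sections, and it was highest in the meningeal area in 3 of 4 sets. Cdh3, P-cadherin, had 547, 76, 299 and 125 counts; the few choroid plexus spots of sets 1, 3 and 4 held 298, 138 and 29 of them, at 119.6, 75.7 and 124 CPM. Among areas held by all sets, the ependymal area held the most Cdh3 in sets 1, 3 and 4, and the meningeal area in set 2. Ependymal levels of Cdh3 were 22.3, 2.005, 13.9 and 4.32 CPM. Choroid plexus markers summed to 56606, 348, 60023 and 573 CPM in the ependymal area, high in the same sets as Cdh3. Their part in the Cdh3 values was not tested. Cdh26 had 127, 55, 62 and 68 counts and was highest in the ependymal area in all 4 sets, at 8.98, 1.203, 4.39 and 5.61 CPM. Cdh16, of kidney epithelium, had 9, 50, 25 and 60 counts and Cdh17, of gut epithelium, 23, 17, 7 and 22. Fat2, a granule cell gene of the cerebellum, had 44, 65, 33 and 64 counts, and Pcdh12, an endothelial protocadherin, 114, 147, 93 and 163. Cdh23, the stereocilia partner of Pcdh15, differed between sets within the hypothalamic area, at 15.1, 17.8, 2.74 and 2.05 CPM, high in sets 1 and 2 and low in sets 3 and 4, while other spots held 1.503, 1.72, 2.44 and 1.84.

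Set by set, over whole sections, the median log2 range over the 4 sets was 0.51 for members and 0.49 for all tested genes. A gene was called apart between 2 sets when log2 of its CPM plus 1 differed by at least 1. Between sets 1 and 2, 5 of 30 members, or 16.7%, were apart (Cdh2, Cdh18, Cdh19, Cdh20 and Pcdh11x), beside 6.76% of tested genes. Between sets 1 and 4, 4 members, or 13.3%, were (Cdh2, Cdh18, Cdh19 and Pcdh11x), beside 7.23%. Between sets 3 and 4, 3 members, or 10.0%, were (Cdh2, Cdh19 and Pcdh11x), beside 5.61%. Cdh2 and Cdh19, or 6.67% of the tested members, were apart between sets 2 and 3, beside 4.11%. No member was apart between sets 1 and 3, where 0.493% of tested genes were, or between sets 2 and 4, where 0.779% were. These lists moved with the scaling: under both TMM and RLE, sets 1 and 4 had 6 members apart (Cdh2, Cdh8, Cdh9, Cdh19, Cdh20 and Pcdh11x), so Cdh18 was lost there, and sets 3 and 4 had 5 (Cdh2, Cdh8, Cdh9, Cdh19 and Pcdh11x). In the striatal area alone, 4 members were apart between sets 1 and 2 (Cdh2, Cdh20, Pcdh11x and Dchs2) and 4 between sets 1 and 4 (Cdh2, Cdh8, Cdh22 and Pcdh11x), with neither Cdh18 nor Cdh19 among them.

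Cdh2, N-cadherin, the main classic cadherin of neural tissue, stood furthest apart. It was 64.4, 7.29, 43.01 and 8.36 CPM in sets 1 to 4, from 11258, 799, 7105 and 759 counts, so sets 1 and 3 were high and sets 2 and 4 low. Set 1 over set 2 was a ratio of 8.84 (95% interval 8.23 to 9.51), and of the 10144 tested genes 28 had a wider range over sets. The same sets were high in every area: over the 16 areas held by all sets Cdh2 spanned 40.8 to 95.3 CPM in set 1 and 28.6 to 62.6 in set 3, but 3.902 to 11.1 in set 2 and 4.84 to 11.7 in set 4. No area was called for it. With 10 CPM added, a lower call was out of reach in sets 2 and 4, where Cdh2 stood under 10 CPM over whole sections. Since a call needs every set, no lower call could be made. In the striatal area alone, Cdh2 was apart in the same 4 pairs of sets as over whole sections. Weighting each area equally gave 63.8, 7.47, 43.3 and 7.88 CPM, and thinning all sets to the smallest library gave 64.7, 7.22, 43.2 and 8.36. Sets 1 and 3 were also the deeper ones, at a median of 52481 and 44966 counts per spot against 38182 and 26444 before thinning. With 1 section per set, differences between mice, sections and libraries cannot be told apart.

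**Figure D3:**
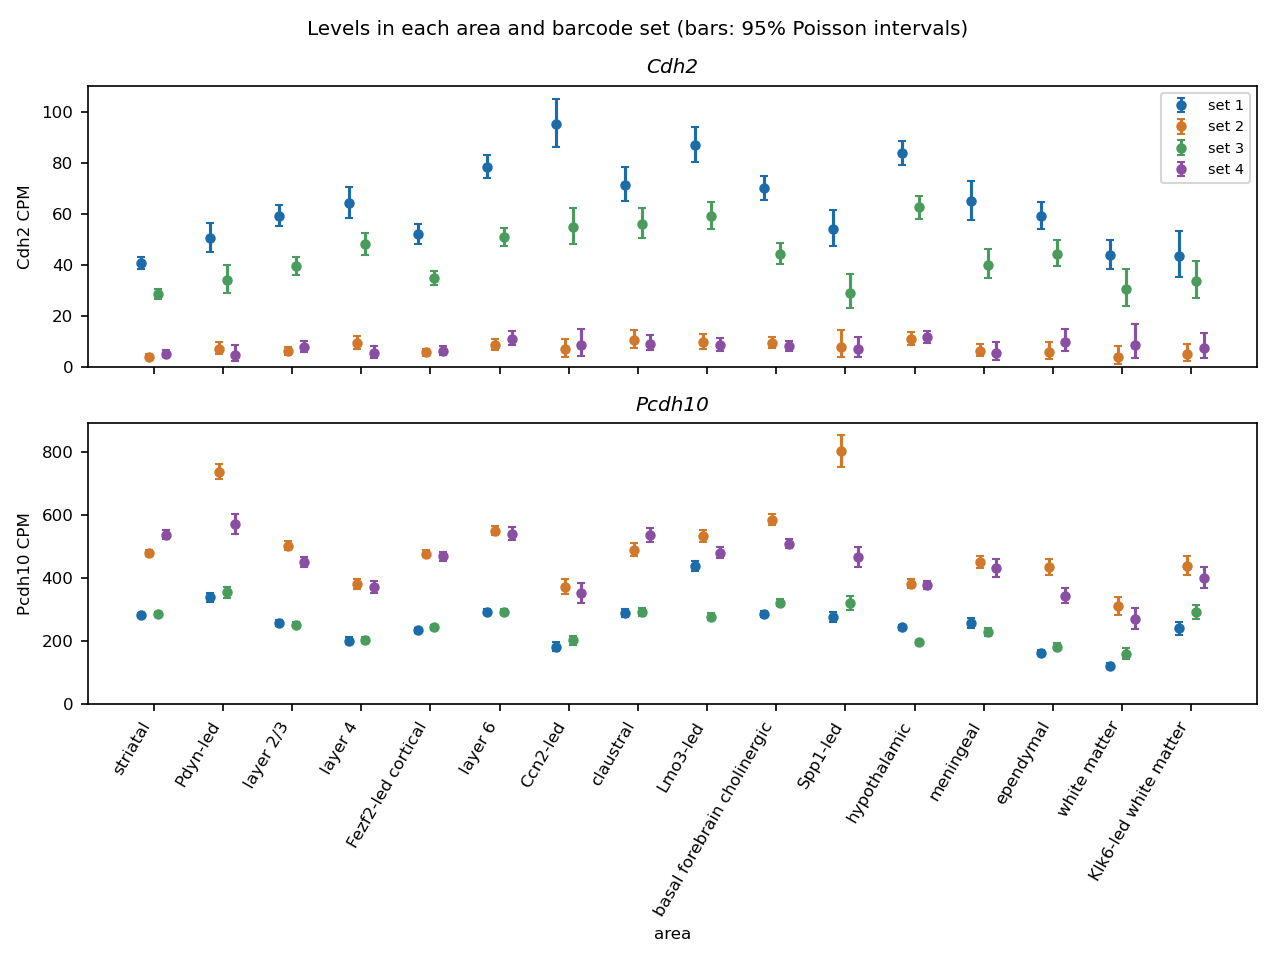
CPM of Cdh2 (top) and Pcdh10 (bottom) in the 16 areas held by all 4 barcode sets, with 1 colour per set and exact 95% Poisson intervals. For Cdh2, sets 1 and 3 lie above sets 2 and 4 in each of the 16 areas.

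The other members past this limit were low or moderate in level. Cdh19 was 17.5, 4.96, 12.6 and 5.63 CPM and Pcdh11x 19.3, 7.76, 14.6 and 5.73 CPM, both higher in sets 1 and 3. Cdh20, at 29.5, 12.8, 23.8 and 15.8 CPM, was likewise higher in sets 1 and 3, whereas Cdh18, at 13.3, 31.4, 19.6 and 31.3 CPM, was lowest in sets 1 and 3. The summed white matter markers, at 18442, 9665, 9491 and 13248 CPM, were highest in set 1, and their part in the Cdh19 differences between sets was not tested. Adding 10 CPM before taking logs left Cdh2 as the single member apart in each of the 4 pairs of sets that had any. Pcdh10 fell short of the limit at 256, 490.1, 255 and 458 CPM, with values of sets 2 and 4 above those of sets 1 and 3 in whole sections.

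**Figure D4:**
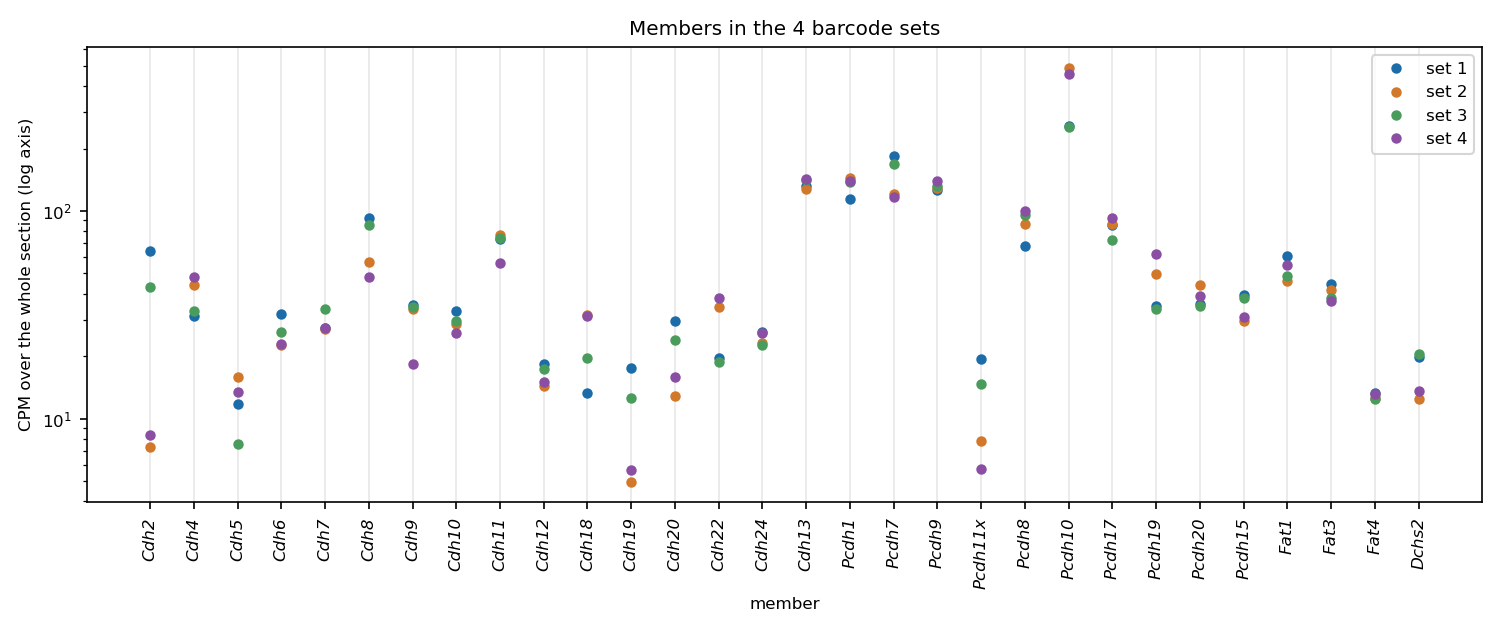
Whole-section CPM (logarithmic axis) of the 30 tested members in the 4 barcode sets, 1 colour per set. Points of a member mostly lie close together, with Cdh2 as the widest column, from 7.29 to 64.4 CPM.

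A list of 20 adhesion partners, catenins and other proteins that bind cadherins inside the cell or cooperate with them, was read in the same way. Of the 19 that were tested, 5 were called higher in at least 1 area, beside the 15.2% of tested genes, and 1 was called lower, beside 15.3%. Ctnna3, alpha-T-catenin, was called in white matter at 113, 76.7, 73.1 and 85.4 CPM against 14.4, 7.001, 7.798 and 10.8, and in the Klk6-led white matter, where 4.29% and 1.3% of tested genes were called higher. Pkp4, an armadillo-repeat relative of Ctnnd1, was also called in white matter, Jup (plakoglobin) in the Ccn2-led area beside 0.601% of tested genes, Arvcf in the ependymal area beside 1.51% and Nectin3 in layer 2/3 beside 0.67%. Nectin1 was called lower in the striatal area, beside 3.99%. The core catenins Ctnnb1, Ctnna1, Ctnna2, Ctnnd1 and Ctnnd2, which most classic cadherins share, were called in no area.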

How the data were processed

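Coronal sections from 2 wild type and 2 Celsr3 heterozygous mice were deposited as 1 table of raw probe counts per gene and spot; whole counts were deposited, with no normalization, per the values of the table. The submitters' processing notes name Space Ranger and Seurat without roles; a genome build is not given in the sources used here. The members and lists were chosen with earlier results of these data known. Spots with at least 500 counts (12601 of 12602) were scaled to 10000, log-transformed, centred and scaled within each set, reduced to 30 components of 2000 variable genes, joined by mutual 12 nearest neighbours in each set, and clustered with leidenalg 0.10.2 at resolution 0.8; the graph settings were chosen after clusters, not member values, were seen. Adjoining areas were compared after the data were seen. All members are accounted for, and those called get values in every set. The planned edgeR test of genotype was not run because no set could be tied to a sample; edgeR 4.0.16 gave TMM and RLE factors only. The call rules were tested on simulated counts with counting error only, so variation among spots or sections was not covered. For the striatal area, 172 of 200 genes changed 4-fold were called, and 0 of 200 changed 1.5-fold, which is under the limit. Between sets 1 and 2, 200 of 200 and 0 of 200 were called. Row names matched RefSeq windows before the start for 26 members. Windows on chromosome 18, which carries Cdh2, Pcdh1 and Pcdh12, were left out.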

Additional observations from a re-analysis of the deposited data

How the results depend on the processing

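No paired analysis was possible because no barcode set could be tied to a sample, which also left the tests of genotype, with DESeq2, a replicate block, no filter or a sample left out, without a value. The 12 members called higher in at least 1 area became 5 at resolution 0.4, 7 when set 1 was left out of the clustering and 23 at a fold of 1.5. The 12 called lower became 7 without set 1, 21 at a fold of 1.5 and 22 with 1 CPM added. Resolution 0.4 and the clustering without set 1 found 12 and 14 of the 21 areas again, and kept 15 of the 18 and 16 of the 21 member calls in areas they found. The 6 partners called became 3 at resolution 0.4 and 15 at a fold of 1.5. Between sets, adding 10 CPM left 1 member, Cdh2, apart in each of the 4 pairs that had any, and TMM and RLE scaling each gave 5 for sets 3 and 4. Of the 38 member calls, TMM and RLE scaling kept 33 each; among calls in areas found again, 35 of 37 were kept at resolution 1.2, 30 of 37 with no centring, 26 of 31 at a minimum of 2000 counts per spot, and 35 of 38, 27 of 31 and 31 of 34 without sets 2, 3 and 4. No call changed direction under these alternatives. Of 437 folds recomputed under them, 365 stayed within the counting interval of the reported value and 72 moved beyond it. The 365 take in the values for a fold of 1.5 and for no minimum CPM, which repeat the reported fold and could not move. Further settings were chosen after seeing the data. In the striatal area alone, 1 member was apart between sets 2 and 3 (Cdh2) and 1 between sets 2 and 4 (Dchs2). Against an adjoining area alone, where both areas are low, the log2 fold of the set that moved furthest turned to 0.11 for Cdh13 in layer 2/3 against layer 4 and 0.45 in layer 4 against layer 2/3. It turned to 0.048 for Dchs2 in layer 4 against the Fezf2-led area, and to 0.12 and 0.15 in the Fezf2-led area against layer 4 and layer 6. It turned to 0.48 for Cdh8 and 0.13 for Pcdh8 in layer 6 against the Ccn2-led area, and to 0.11 for Pcdh8 in the Ccn2-led area against layer 6. Low counts limit the calls on the 10 members under 10 CPM, and the thalamic and Six3-led calls rest on 2 sets.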
